A study of Homo sapiens with 6 samples.

Results

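The transcripts described here are those of 49 genes that copy DNA or supply its precursors, and they were measured in HCT116, a human epithelial colon carcinoma cell line, kept as 3 stable lines. The 49 genes were taken by symbol from the 20030 gene rows of each table, and all 49 passed the filter on low values, which kept 11445 genes. They comprise the 6 subunits of the MCM helicase, 6 factors that activate it, the 6 subunits of the origin recognition complex, 3 genes of helicase loading and its control, the sliding clamp with 5 subunits of its loader, 9 subunits of the replicative polymerases and primase, 2 enzymes that finish Okazaki fragments, the 3 subunits of RPA, 5 nucleotide enzymes, UHRF1 and the 2 E cyclins. The first line is labelled as a control, and the labels do not say what it carries. A further line over-expresses wild type TEAD4, and the last over-expresses the TEAD4 mutant K178R, in which arginine replaces lysine. TEAD4 is a transcription factor that binds DNA and acts with YAP and TAZ, the co-activators restrained by the Hippo pathway. Each line had 2 libraries of total RNA made with a TruSeq RNA kit, and all 3 lines share the HCT116 background. Whether the 2 libraries of a line are from different cultures, and whether a genotype had more than 1 line, is not in the labels; each p-value therefore rests on library-to-library spread alone, and that spread may be technical. The genotype field of wild type TEAD4 replicate 2 names TEAD5, whereas its title names wild type TEAD4, by which it was grouped.

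DNA replication starts when the origin recognition complex, with CDC6 and CDT1, loads the ring-shaped MCM helicase on DNA in the G1 phase of the cell cycle. In S phase, CDC45 and the GINS complex join MCM to form the active helicase, RPA coats the single strands, and the polymerases extend DNA while held by the PCNA clamp, which the RFC complex loads. Deoxynucleotides come from ribonucleotide reductase and from the thymidylate enzymes. Many of these genes are transcribed at the G1 to S transition by E2F factors, which the retinoblastoma family restrains, and the cyclin-dependent kinase inhibitor p21, the product of CDKN1A, acts upstream of that switch.

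TEAD4 itself was read first as a check of the labels. In FPKM, fragments per unit of transcript length and of sequencing depth, it stood at 16.6 and 17.5 in the control libraries, 86.4 and 84.4 in the wild type libraries, and 71.2 and 72.3 in the K178R libraries. Both over-expressing lines lay above control, and the K178R line lay below the wild type line by 0.25 on the log2 scale (adjusted p = 0.00131). FPKM summed to between 283195 and 305329 per library, and the depth in reads is unknown, although the steps between low values put the libraries within 0.928 to 1.05 times the depth of control replicate 1. All 6 epithelial markers were present, at 10.2 FPKM or more in every library. Their sum was 2671 and 2717 in control, 1846 and 1898 with wild type TEAD4, and 2888 and 2921 with K178R. Sums over fibroblast, leukocyte and endothelial markers stayed between 1.37 and 5.16 FPKM in all libraries, with COL1A2, DCN, LUM and CD3E at 0. The lower sum in the wild type line came mainly from KRT8 (1307 and 1288 FPKM in control, 783 and 758 in the wild type line) and KRT18 (700.2 and 681, and 464 and 449), whereas EPCAM stood at 152 and 153 against 146 and 148 and CLDN4 was higher (39.5 and 40.5 against 51.7 and 53.8). Most of the genes below were also lowest in the wild type line, and the part of these markers in their values was not tested.

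Promoter sequence was examined because these genes tended to move together. Of the 49 genes, 42 had a RefSeq promoter entry (GRCh38.p14, 250 bases before to 50 after the annotated start; a gene with several starts counted as holding a word if any of its promoters did). The 7 without an entry are MCM4, MCM5, GINS4, POLD3, RPA2, RPA3 and CCNE2. An E2F-type word was searched on both strands, in 4 versions that may overlap: TTTCCCGC, TTTCGCGC, TTTGCCGC and TTTGGCGC. At least 1 of them occurred in 21 of the 42 genes (50%), against 3.99% of 27305 genes with a promoter entry. That wider set exceeds the 20030 gene rows and the 11445 genes tested, so it includes genes not measured here. It was not matched to the members. Of the 26 genes with an entry that were lower with wild type TEAD4 than in control, values as deposited, 17 held the word (65.4%). Of the other 16, 4 did (25%: GINS1, GINS3, ORC3 and LIG1). These groups depend on scaling. With the libraries scaled by the median of their gene ratios, 41 of the 49 genes were lower, GINS1 among them, against 25.2% of all tested genes. Shares were not computed for those groups, so the contrast is given for the deposited values only. CCAAT, the word bound by NF-Y, occurred in 25 of 42 (59.5%) against 39.7% of all genes. The TEAD word GGAATG occurred in 6 of 42 (14.3%) against 16.7% of all genes. These are counts of letters in short windows and do not show binding in these cells.

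The 6 stretches of 160 bases upstream of a RefSeq start printed here show how these words lie. Where a gene has several starts, a start with the most marked words was printed. MCM6 and GINS2, UHRF1 and POLE were picked as genes whose transcripts fell with wild type TEAD4 and whose promoters hold the E2F-type word, printed in capitals. Other members lack this match: ORC1 and MCM10 fell without the word, and ORC3 holds it and rose, values as deposited. In MCM6, each capital run is a pair of overlapping words read on opposite strands. RRM2 and RRM1, the subunits of one enzyme of which RRM2 alone was called in that comparison with the values as deposited, have no E2F-type word in these windows and are shown with CCAAT in capitals. The stretches are MCM6 at chr2:135876444-135876603 (minus strand), GINS2 at chr16:85688955-85689114 (minus), UHRF1 at chr19:4909341-4909500 (plus), POLE at chr12:132687343-132687502 (minus), RRM2 at chr2:10122579-10122738 (plus) and RRM1 at chr11:4094525-4094684 (plus), each printed 5′ to 3′ on the strand of the gene.
MCM6: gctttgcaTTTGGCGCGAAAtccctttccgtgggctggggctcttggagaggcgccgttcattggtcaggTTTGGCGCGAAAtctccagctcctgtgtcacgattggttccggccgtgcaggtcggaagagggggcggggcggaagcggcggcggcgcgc
GINS2: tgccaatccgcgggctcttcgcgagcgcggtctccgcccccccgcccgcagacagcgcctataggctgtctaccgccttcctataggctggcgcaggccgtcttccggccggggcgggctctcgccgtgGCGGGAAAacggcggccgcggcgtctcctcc
UHRF1: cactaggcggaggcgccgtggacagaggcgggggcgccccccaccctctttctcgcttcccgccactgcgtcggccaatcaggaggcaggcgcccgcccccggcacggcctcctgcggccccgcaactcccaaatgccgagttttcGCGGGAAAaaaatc
POLE: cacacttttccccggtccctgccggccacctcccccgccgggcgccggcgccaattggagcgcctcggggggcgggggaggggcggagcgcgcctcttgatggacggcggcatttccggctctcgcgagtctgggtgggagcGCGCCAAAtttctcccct
RRM2: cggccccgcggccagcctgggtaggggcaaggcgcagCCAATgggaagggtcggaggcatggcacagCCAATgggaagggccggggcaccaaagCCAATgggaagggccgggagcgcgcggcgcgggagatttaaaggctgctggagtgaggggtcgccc
RRM1: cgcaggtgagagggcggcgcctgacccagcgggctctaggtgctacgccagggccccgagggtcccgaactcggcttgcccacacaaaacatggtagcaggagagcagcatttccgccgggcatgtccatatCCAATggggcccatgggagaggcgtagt
RRM2 carries CCAAT 3 times in this stretch and RRM1 carries it 1 time.

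The first comparison asked how replication transcripts differed between the line over-expressing wild type TEAD4 and the control line. Most were lower: 30 of the 49 genes fell, 3 rose (ORC3, ORC4 and RPA3) and 16 were not called. A gene was called where limma's moderated test on log2(FPKM + 1), fitted to all 11445 genes and all 6 libraries, gave a Benjamini-Hochberg adjusted p of at most 0.05. The same rule called 12.2% of all tested genes lower, 37.6% higher and 49.9% in either direction. In 35 of the 49 genes both wild type libraries lay below both control libraries, which was so for 21.9% of all tested genes. The median log2 change was -0.16 over the 49 genes and 0.09 over all tested genes, and the 49 changes ran from -0.58 to 0.28. Changes on this scale understate those of genes with low FPKM. In bulk RNA, fewer cells in S phase and less of these RNAs per cell cannot be told apart.

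**Figure D1:**
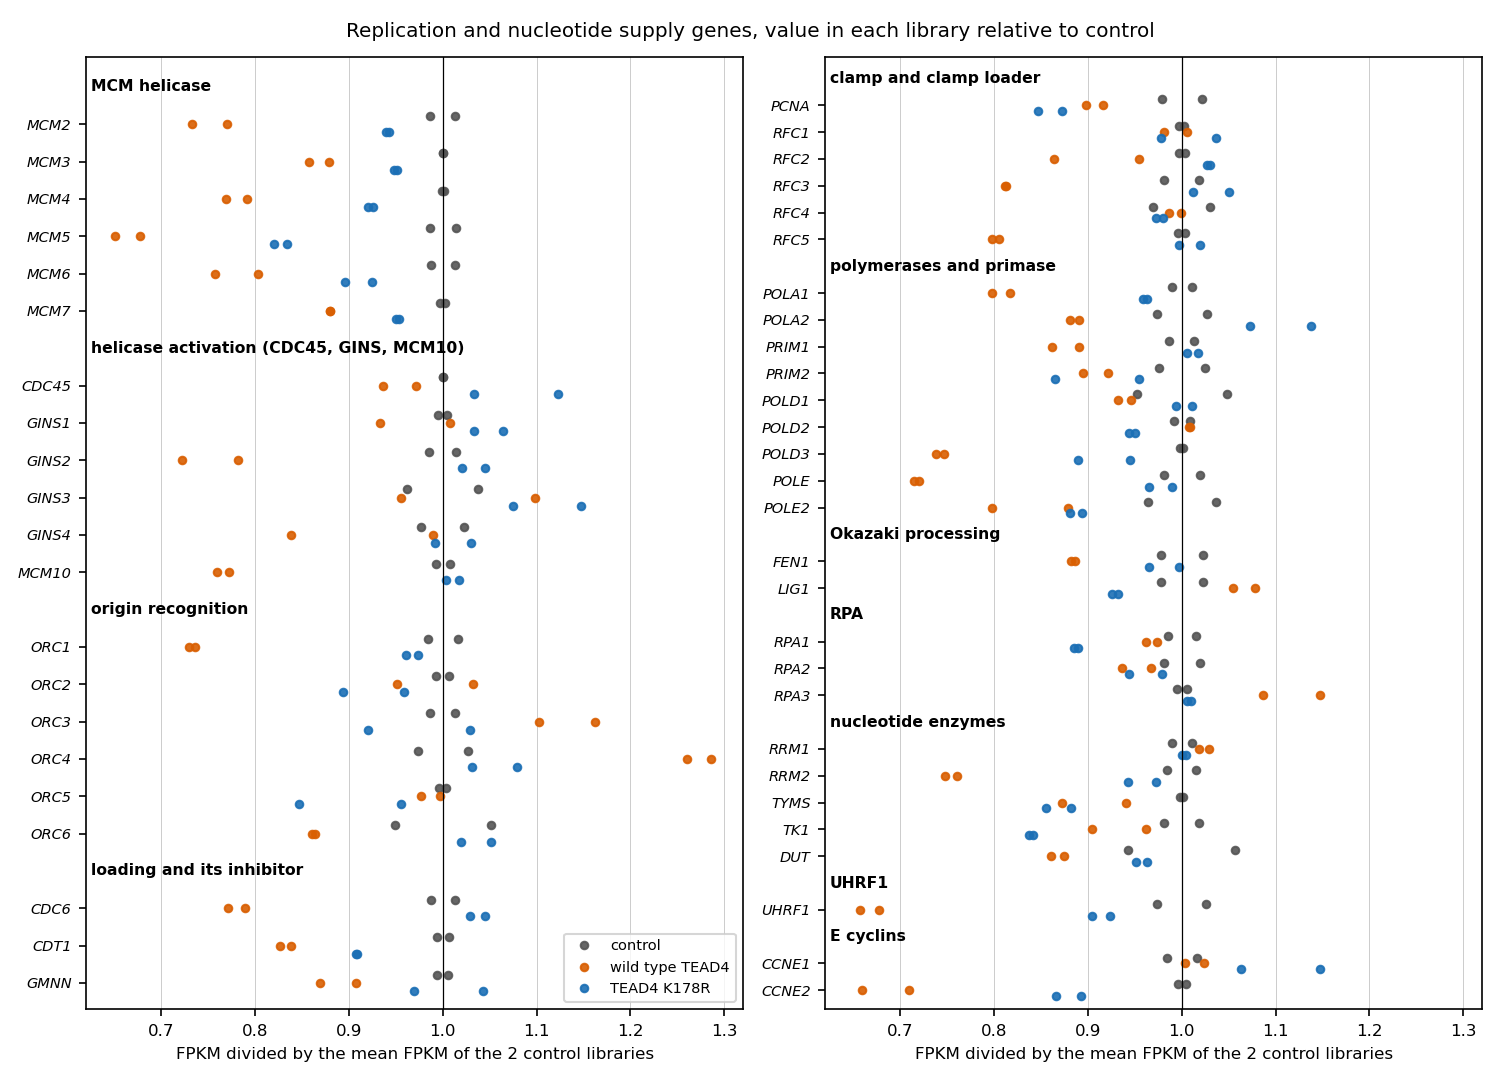
Each point is the FPKM of 1 gene in 1 library divided by the mean of the 2 control libraries, in the control, wild type TEAD4 and K178R lines, with genes grouped by complex and the vertical line at the control mean. Both wild type libraries sit left of both control libraries in 35 of 49 genes, and the K178R points lie nearer the control mean for MCM2, GINS2, ORC1, POLE, RRM2 and UHRF1.

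All 6 subunits of the MCM helicase, the motor that unwinds DNA, fell with wild type TEAD4. MCM5 (chromosome 22, 35400063 to 35425430, plus strand; GRCh38, GENCODE release 29) had 63.4 and 65.1 FPKM in control and 43.5 and 41.8 in the wild type line. That is a log2 change of -0.58 (SE 0.03, adjusted p = 2.34e-05), the largest fall of the 49 genes. MCM2 had 69.3 and 67.5 FPKM in control and 52.7 and 50.1 in the wild type line, a log2 change of -0.41 (SE 0.03, adjusted p = 0.000111). Neither gene's wild type values overlapped its control values. MCM4 (log2 change -0.35), MCM6 (-0.35), MCM3 (-0.20) and MCM7 (-0.18) changed less. FPKM is per length and so can be compared between genes: in both control libraries the order was MCM7, MCM4, MCM3, MCM2, MCM5 and MCM6, from 119 FPKM for MCM7 to 57.0 ± 1.05 (SD, n = 2) for MCM6. In both wild type libraries MCM6, at 44.5 ± 1.86, stood above MCM5, at 42.6 ± 1.24, although these levels differ by about the spread between libraries.

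Among the factors that turn the loaded helicase on, GINS2 and MCM10 fell and CDC45, GINS1, GINS3 and GINS4 were not called. GINS2, a subunit of the 4-part GINS complex, had 55.0 and 53.4 FPKM in control and 42.4 and 39.1 in the wild type line (log2 change -0.40, SE 0.04, adjusted p = 0.000301). MCM10, a fork factor that is not part of the MCM ring, went from 19.0 and 19.3 to 14.5 and 14.8 FPKM (log2 change -0.36, SE 0.03, adjusted p = 0.000185). The log2 changes of GINS1, GINS3 and GINS4 were -0.04, 0.03 and -0.12, and their libraries overlapped between the lines; with the libraries scaled by the median of their gene ratios (median of ratios), GINS1 (-0.16) and GINS4 (-0.23) were called lower and GINS3 (-0.08) was not. CDC45, the helicase's other partner, had 11.9 and 11.8 FPKM in control and 11.5 and 11.1 with wild type TEAD4 (adjusted p = 0.298; called lower, -0.18, after that scaling).

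Origin recognition was split. ORC1, the subunit whose level changes over the cell cycle, fell from 16.8 and 17.3 FPKM to 12.5 and 12.4 (log2 change -0.42, SE 0.04, adjusted p = 0.000135). ORC6 fell as well (log2 change -0.20). ORC4 rose from 3.99 and 3.79 to 4.90 and 5.0004 FPKM (log2 change 0.28, SE 0.05, adjusted p = 0.00319). ORC3 had 9.64 and 9.89 FPKM in control and 10.8 and 11.3 in the wild type line (log2 change 0.16, SE 0.06, adjusted p = 0.0465), close to the threshold. ORC2 and ORC5 were not called and their libraries overlapped. The 3 genes of helicase loading all fell: CDC6, which recruits MCM with CDT1 to the origin (log2 change -0.35), CDT1 itself (-0.26) and GMNN, which encodes geminin, the inhibitor of CDT1 (-0.16).

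Of the clamp and its loader, 4 of 6 genes fell. PCNA, the sliding clamp, fell from 259 and 270 FPKM to 237 and 242 (log2 change -0.14). RFC5 (-0.30), RFC3 (-0.26) and RFC2 (-0.13) fell, whereas RFC1, the large subunit, and RFC4 had log2 changes of -0.01 each and were not called (-0.13 each, called lower, after median-of-ratios scaling). Among the 9 polymerase and primase genes, 6 fell. POLE, the catalytic subunit of polymerase epsilon, which copies the leading strand (chromosome 12, 132623753 to 132687365, minus strand), had 19.1 and 19.8 FPKM in control and 14.01 and 13.9 in the wild type line (log2 change -0.45, SE 0.04, adjusted p = 0.000112). POLD3, an accessory subunit of polymerase delta, went from 6.46 and 6.48 to 4.78 and 4.83 FPKM (log2 change -0.36, SE 0.05, adjusted p = 0.000811). Within polymerase delta, POLD1, the catalytic subunit, had a log2 change of -0.08 and POLD2 of 0.01, and neither was called, although both were called lower after median-of-ratios scaling. POLA1 (-0.26) and POLA2 (-0.15) of polymerase alpha, the primase subunit PRIM1 (-0.18) and POLE2 (-0.23) fell, and PRIM2 (-0.11) was not called except after that scaling.

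Of the enzymes that finish Okazaki fragments, the flap nuclease FEN1 fell (log2 change -0.17) and the ligase LIG1 was not called, with 19.1 and 20.0 FPKM in control and 21.1 and 20.6 in the wild type line. In RPA, the single-strand binding complex, RPA3, the smallest subunit, rose from 14.2 and 14.01 to 15.3 and 16.2 FPKM (log2 change 0.15, SE 0.04, adjusted p = 0.0154). RPA1 (-0.05) and RPA2 (-0.07) were not called with the values as deposited; after median-of-ratios scaling both were called lower and RPA3 was not called. Of the MCM, GINS, origin recognition, RFC and RPA complexes, the MCM ring was the one with every subunit called the same way; after median-of-ratios scaling this held for the 5 RFC subunits too.

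Among the 5 nucleotide enzymes, 4 fell. RRM2, the small subunit of ribonucleotide reductase and the one that limits it in S phase (chromosome 2, 10120698 to 10131419, plus strand), had 244 and 251 FPKM in control and 188 and 185 in the wild type line (log2 change -0.40, SE 0.03, adjusted p = 5.73e-05). RRM1, the large subunit, had 53.9 and 52.8 FPKM in control and 54.9 and 54.3 in the wild type line and was not called (log2 change 0.03, 95% interval -0.03 to 0.10; -0.09 and called lower after median-of-ratios scaling). TYMS, the thymidylate synthase (-0.14), TK1, the thymidine kinase (-0.10), and DUT, which removes dUTP (-0.19), fell by less. UHRF1, which recruits DNA methylation to newly copied strands (chromosome 19, 4903080 to 4962154, plus strand), fell from 47.1 and 49.6 to 32.8 and 31.8 FPKM (log2 change -0.57, SE 0.04, adjusted p = 4.00e-05). CCNE2, cyclin E2, which drives CDK2 at the start of S phase, fell from 9.86 and 9.94 to 6.52 and 7.02 FPKM (log2 change -0.49, SE 0.05, adjusted p = 0.000233). Its relative CCNE1 had 22.7 and 23.4 FPKM in control and 23.1 and 23.6 in the wild type line and was not called.

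Of these 33 calls, 23 held under each of 18 alternative settings, an adjusted p of at most 0.01 among them; a minimum log2 change of 0.3 is not among the 18 and left 14 lower and 0 higher. ORC3, RPA3, ORC6, GMNN, RFC2, POLA2, POLE2, TYMS, TK1 and DUT were not called in at least 1 of the fits that left out a library. RFC2 and TK1 were lost in 5 of these 6 fits each (adjusted p up to 0.193 and 0.222), ORC3 in 4 (up to 0.192), and ORC6 only without control replicate 2 (0.0544). Median-of-ratios scaling moved the median of all genes from 0.09 to -0.01. Under it 41 of the 49 genes were called lower and 1, ORC4, higher, and the difference between the members' median and that of all genes was -0.26, against -0.25 with the values as deposited. Among all genes the same scaling changed the calls from 4309 higher and 1402 lower to 2572 higher and 2884 lower.

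**Figure D2:**
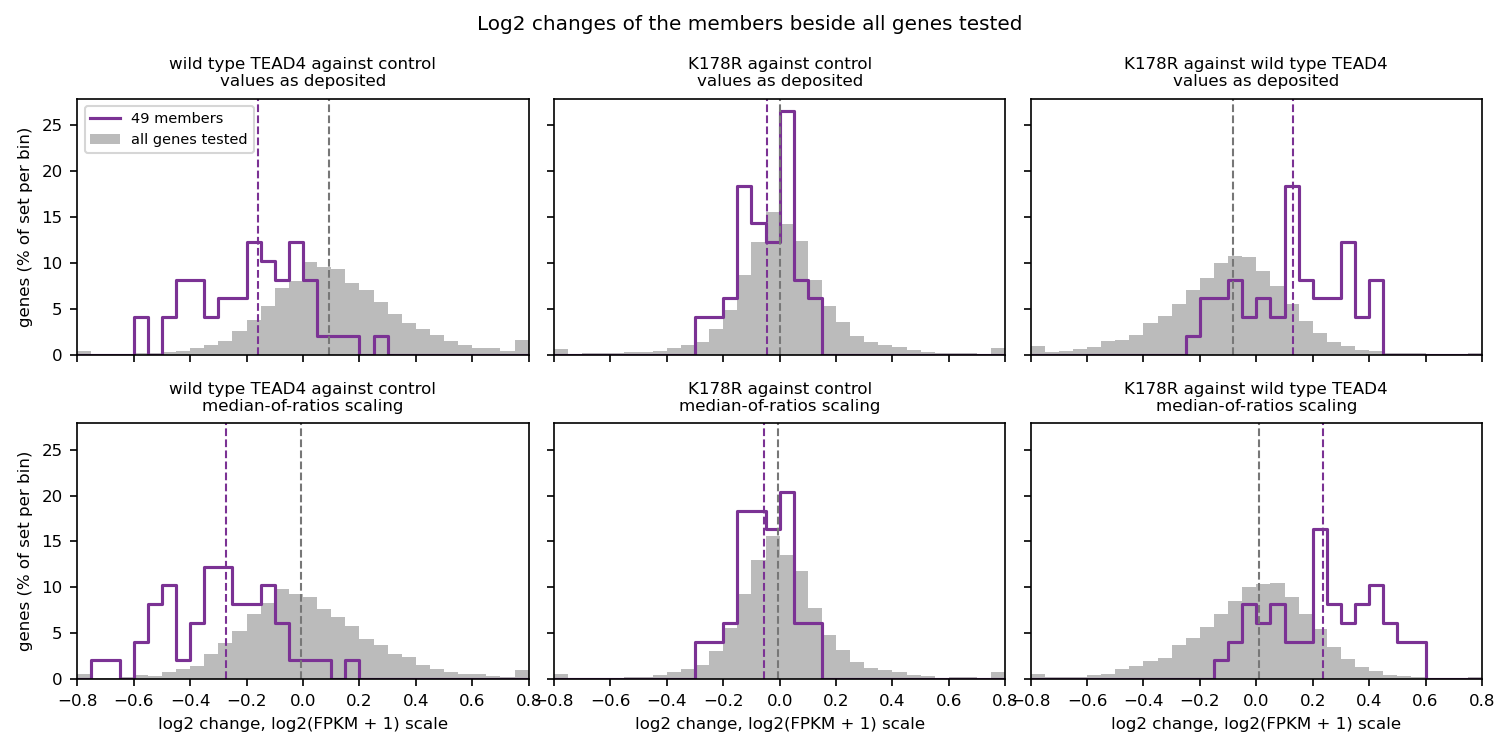
Histograms of log2 change on the log2(FPKM + 1) scale for all 11445 tested genes (grey bars) and the 49 members (purple line), in percent of each set per bin of 0.05, between -0.8 and 0.8 with values beyond put in the end bins, for the 3 comparisons in columns, with values as deposited above and after median-of-ratios scaling below. Dashed lines mark the medians, and the members' median lies 0.25 below that of all genes in wild type TEAD4 against control as deposited and 0.26 below it after scaling.

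The next comparison set the K178R line against the same control libraries. Fewer replication transcripts differed: 10 of the 49 genes fell and none was called higher, against 11.1% of all tested genes called lower, 11.7% higher and 22.8% in either direction. At an unadjusted p under 0.05 in limma, CCNE1 and POLA2 were higher and 17 genes were lower. The share of all genes at that cut was not computed, so these 2 counts have no background beside them. The median change was -0.05 over the 49 genes and 0.00 over all genes, and in 24 of 49 genes both K178R libraries lay below both control libraries, against 30.3% of all genes.

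The 10 genes that fell came from several complexes. MCM5 fell from 63.4 and 65.1 FPKM to 53.6 and 52.6 (log2 change -0.27, SE 0.03, adjusted p = 0.00128). TK1 fell from 137 and 132 to 113 FPKM in both K178R libraries (log2 change -0.25, SE 0.04, adjusted p = 0.0026). PCNA fell from 259 and 270 to 230 and 224 FPKM (log2 change -0.22, SE 0.03, adjusted p = 0.00225). These 3 were called under each of the 18 settings that put no minimum on the change, and none of the 10 reached a log2 change of 0.3.
TYMS had 126 and 125 FPKM in control and 107 and 111 with K178R (log2 change -0.20, SE 0.04, adjusted p = 0.00938). RPA1, the large RPA subunit, had 39.3 and 40.5 FPKM in control and 35.5 and 35.3 with K178R (log2 change -0.17, SE 0.03, adjusted p = 0.00696). CDT1 (log2 change -0.14, SE 0.03, adjusted p = 0.0118), MCM4 (-0.11, SE 0.03, adjusted p = 0.0185), MCM6 (-0.13, SE 0.04, adjusted p = 0.0384), UHRF1 (-0.13, SE 0.04, adjusted p = 0.0408) and CCNE2 (-0.17, SE 0.05, adjusted p = 0.0402) lay nearer the threshold. None of the factors that activate the helicase, the origin recognition subunits or the polymerase and primase genes was called.

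Of these 10 calls, 5 were kept without control replicate 1, 3 when control replicate 2 was left out, 4 when K178R replicate 1 was and 5 when K178R replicate 2 was. CCNE2, CDT1, MCM4 and MCM6 were lost in each of these 4 fits (adjusted p up to 0.163, 0.0724, 0.0904 and 0.171). TYMS was lost in 3 of them, UHRF1 in 3 and RPA1 in 1 (adjusted p up to 0.0588, 0.198 and 0.0501). CCNE2 and TYMS each share exon bases with a gene on the opposite strand, and whether strand was used in the deposited values is not given in the sources used here. For CCNE2, 1629 of 4397 exon bases overlap INTS8, which had 10.3 and 9.66 FPKM in control, 9.66 and 9.06 in the wild type line and 8.44 and 7.94 with K178R, so reads of these 2 genes could be mixed. For TYMS, 967 of 2470 exon bases overlap ENOSF1, which stayed between 4.05 and 4.57 FPKM. Other members overlap annotated genes too, among them RRM2, POLA2 and MCM2. On the same strand, AC007240.1 shares 1077 of 5323 exon bases of RRM2, and AP000944.2 shares 2012 of 5726 of POLA2. An antisense gene shares 1113 of 4902 exon bases of MCM2. None of these partners has deposited values. Such overlaps bear on every comparison.

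The last comparison set the 2 over-expressing lines against each other. A difference between the mutant and wild type protein cannot be told apart here from one between the lines or in TEAD4 level. In the K178R line 26 of the 49 genes were higher than in the wild type line, 7 were lower and 16 were not called. Over all tested genes 10.4% were called higher, 34.5% lower and 44.9% in either direction. The median log2 change of the 49 genes was 0.13 and that of all genes -0.08. With median-of-ratios scaling 36 members were called higher and none lower, against 22.7% and 19.8% of all tested genes. With upper-quartile scaling 30 were higher and 2 lower, against 16.2% and 25.1% of all tested genes. The wild type libraries enter this comparison and the first, so a low value in them moves both in the same genes, and TEAD4 itself was 0.25 lower on the log2 scale in the K178R line.

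All 6 MCM genes were higher in the K178R line, from 0.11 for MCM7 to 0.32 for MCM2, which had 52.7 and 50.1 FPKM in the wild type line and 64.2 and 64.5 with K178R (SE 0.03, adjusted p = 0.00041). GINS2 showed the largest difference, 42.4 and 39.1 FPKM against 55.3 and 56.6 (log2 change 0.45, SE 0.04, adjusted p = 0.000303). MCM10 had 14.5 and 14.8 against 19.5 and 19.2 FPKM (log2 change 0.38, SE 0.03, adjusted p = 0.000245). CDC45 was also higher (0.16), while GINS1, GINS3 and GINS4 were not called with the values as deposited. After median-of-ratios scaling GINS1 (0.21), GINS3 (0.21) and GINS4 (0.24) were each called higher.
CDC6, with 35.3 and 34.5 against 46.1 and 46.8 FPKM (log2 change 0.40, SE 0.03, adjusted p = 0.000143), led the loading genes, with CDT1 (0.12) and GMNN (0.17) higher too. CDC6 stood below CDT1 in both libraries of the control and wild type lines and above it in both K178R libraries. ORC1 was higher (12.5 and 12.4 against 16.6 and 16.4 FPKM; log2 change 0.37, SE 0.04, adjusted p = 0.000328), as was ORC6 (0.25).

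RFC5 was higher in the K178R line (14.7 and 14.6 against 18.6 and 18.2 FPKM; log2 change 0.31, SE 0.03, adjusted p = 0.000501), with RFC3 (0.30) and RFC2 (0.17). POLE had 14.01 and 13.9 FPKM in the wild type line and 18.8 and 19.3 with K178R (log2 change 0.42, SE 0.04, adjusted p = 0.000235). POLA1 (0.21), POLA2 (0.28), PRIM1 (0.20) and POLD3 (0.26) were higher, and so was FEN1 (0.15). RRM2 had 188 and 185 against 233 and 241 FPKM (log2 change 0.34, SE 0.03, adjusted p = 0.000182). UHRF1 had 32.8 and 31.8 against 43.8 and 44.7 FPKM (log2 change 0.44, SE 0.04, adjusted p = 0.000182), and CCNE2 6.52 and 7.02 against 8.83 and 8.57 (log2 change 0.32, SE 0.05, adjusted p = 0.00172). In each of these genes both K178R libraries lay above both wild type libraries.

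The other 7 calls went the other way, and the K178R line was lower than the wild type line in each. ORC4 (log2 change -0.22, SE 0.05, adjusted p = 0.0108) and ORC3 (-0.20, SE 0.06, adjusted p = 0.0255), the origin subunits that rose with wild type TEAD4, were among them. LIG1 had 21.1 and 20.6 FPKM in the wild type line and 18.1 and 18.2 with K178R (log2 change -0.19, SE 0.04, adjusted p = 0.00499). TK1 had 129 and 122 against 113 FPKM in both K178R libraries (log2 change -0.15, SE 0.04, adjusted p = 0.011). RPA3 (-0.14, SE 0.04, adjusted p = 0.0229), RPA1 (-0.12, SE 0.03, adjusted p = 0.0131) and POLD2 (-0.09, SE 0.03, adjusted p = 0.0276) completed the group. None of the 7 was called after median-of-ratios scaling, under which POLD2 stood at 0.022 and so on the other side of 0. Of these 7 calls, 5 were kept without wild type replicate 1, 3 when wild type replicate 2 was left out, 2 when K178R replicate 1 was and 3 when K178R replicate 2 was. PCNA and TYMS, which fell in the K178R line against control, had log2 changes of -0.08 (95% interval -0.15 to -0.01) and -0.06 (-0.15 to 0.03) against wild type TEAD4 and were not called. Of the genes called higher, CDC45, GMNN and RFC2 were lost in some of the fits that left out a library (adjusted p up to 0.142, 0.117 and 0.0715).

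**Figure D3:**
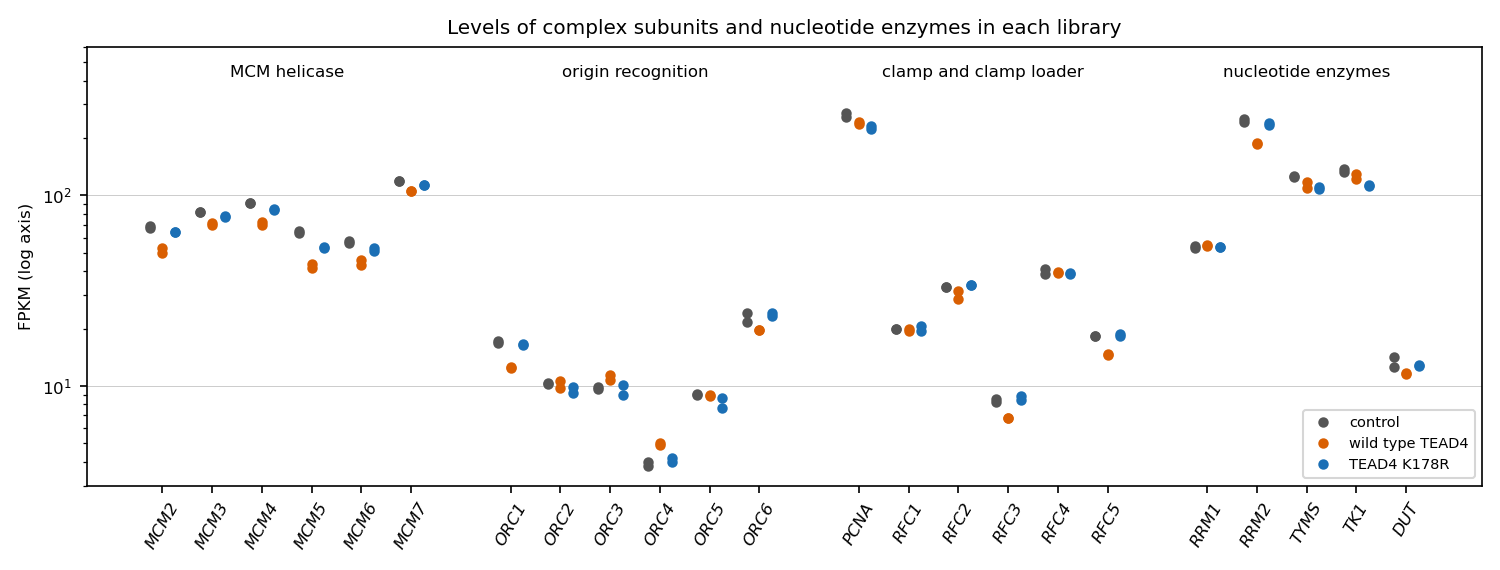
FPKM on a log axis for the subunits of the MCM helicase, origin recognition complex and clamp with its loader, and for the nucleotide enzymes, 2 points per line for control, wild type TEAD4 and K178R. RRM2 and PCNA stand above 180 FPKM in every library and ORC4 lies lowest, between 3.79 and 5.0004 FPKM.

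Ratios between partner genes within a library do not depend on how libraries are scaled. The ratio of RRM2 to RRM1, the subunits of ribonucleotide reductase, was 4.64 ± 0.169 in control, 3.42 ± 0.0143 with wild type TEAD4 and 4.43 ± 0.0843 with K178R (SD, n = 2 each). RRM2B, which encodes the p53-inducible small subunit that can replace RRM2, had 0.0782 of the RRM2 level in control, 0.182 with wild type TEAD4 and 0.0715 with K178R. CCNE2 to CCNE1 was 0.430 ± 0.00699, 0.290 ± 0.0111 and 0.342 ± 0.0256 in the same order. POLE to POLD1 was 1.03, 0.785 and 1.00, and ORC1 to ORC2 was 1.66, 1.23 and 1.74. MCM5 to MCM7 was 0.540, 0.407 and 0.469, so that within the MCM ring the K178R value lay between the others and overlapped neither. RFC5 to RFC4 was 0.460, 0.371 and 0.475. TK1 to RRM2 was 0.544, 0.672 and 0.476, with the K178R mean on the opposite side of control from the wild type mean. The same held for RRM2B to RRM2, ORC1 to ORC2 and RFC5 to RFC4, where control and K178R libraries of RFC5 to RFC4 overlapped. The K178R mean lay on the wild type side and farther from control in PCNA to RFC4 (6.66, 6.08 and 5.86) and CDT1 to GMNN (3.49, 3.28 and 3.16). For CDT1 to GMNN the wild type libraries (3.37 and 3.18) overlapped the K178R libraries (3.27 and 3.05). These are all 10 pairs computed. A ratio shows that 2 genes changed unequally, not which of them changed.

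**Figure D4:**
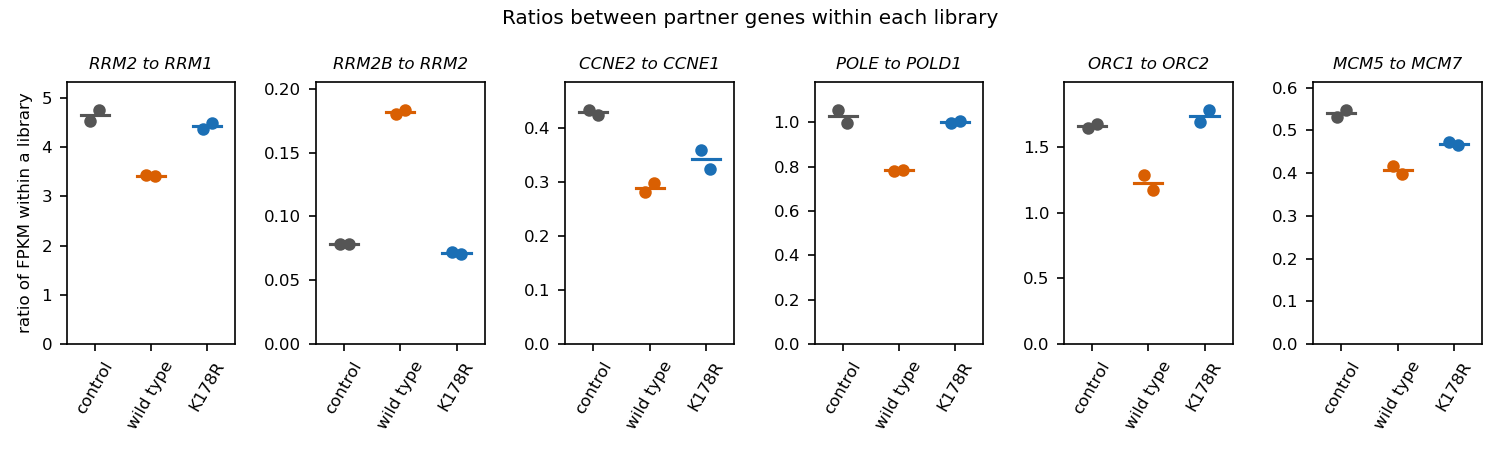
Ratio of FPKM between 2 genes within each library, for 6 of the 10 pairs, with 2 points per line and a bar at their mean; each axis starts at 0. RRM2 to RRM1 is near 3.42 in both wild type libraries and above 4.3 in the other 4, and RRM2B to RRM2 is near 0.182 with wild type TEAD4 against 0.0782 in control.

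Other genes of replication and of the G1 to S switch were read from 4 further lists. Over all tested genes, 12.2% were called lower and 37.6% higher with wild type TEAD4, and 11.1% and 11.7% with K178R. In K178R against wild type 34.5% were lower and 10.4% higher. After median-of-ratios scaling these shares were 25.2% and 22.5%, 11.9% and 10.9%, and 19.8% and 22.7%. Of 25 other fork and firing genes, 14 fell and 4 rose with wild type TEAD4, 4 fell and 1 rose with K178R, and in K178R against wild type 11 were higher and 3 lower. Median-of-ratios scaling gave 18 lower and 1 higher, 6 lower and 1 higher, and 15 higher and 3 lower in the same order. CLSPN, which encodes claspin, the fork adaptor of the checkpoint kinase CHK1, had 9.44 and 9.72 FPKM in control, 6.26 and 6.10 with wild type TEAD4 and 8.59 and 8.55 with K178R (log2 changes against control -0.56 and -0.14). TICRR, an origin firing factor, fell with wild type TEAD4 (-0.40), and POLD4, the small subunit of polymerase delta, rose (0.35). In K178R against control the leading genes were the topoisomerases TOP2A (-0.22) and TOP1 (0.20) and the fork protection gene TIMELESS (-0.21). In K178R against wild type they were POLD4 (-0.48), CLSPN (0.42) and ATAD5 (0.35), which unloads PCNA.
Of 9 genes listed under chromatin assembly and maintenance methylation, 6 fell and none rose with wild type TEAD4 at the adjusted threshold. They were led by SLBP, the histone mRNA binding protein (-0.30), USP37 (-0.29) and the histone chaperone NASP (-0.27). USP37 encodes a ubiquitin protease, so the name of the list does not describe it. With K178R, DNMT1 fell (-0.12) and ASF1A rose (0.18). In K178R against wild type 5 were higher, led by USP37 (0.32), SLBP (0.20) and CHAF1A (0.18), and none was lower. Median-of-ratios scaling gave 8 lower with wild type TEAD4 against control and 9 higher in K178R against wild type.

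The 33 other nucleotide supply genes did not share one direction. With wild type TEAD4, 8 rose and 6 fell, and the median log2 change was 0.01; this split depended on scaling, with 3 higher and 16 lower by median of ratios. RRM2B rose most, from 19.1 and 19.6 to 33.9 and 34.0 FPKM (log2 change 0.78), followed by TK2, the mitochondrial thymidine kinase (0.47), and MTHFD2, a mitochondrial folate enzyme, fell (-0.30). With K178R 7 fell and none rose, led by IMPDH2, the rate-limiting enzyme of guanine nucleotide synthesis (-0.33), CAD, which starts pyrimidine synthesis (-0.26), and ADSS (-0.20). RRM2B had 16.9 and 17.0 FPKM with K178R, -0.96 against wild type TEAD4, and TK2 (-0.28) and GUK1 (-0.29) were lower as well, TK2 not after median-of-ratios scaling. In that comparison 5 of the 33 were higher and 9 lower, against 13 higher and 4 lower after the scaling.

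Of 33 G1 to S regulators 32 were tested, CCND2 being listed at 0 in every library. With wild type TEAD4, 8 rose and 13 fell, with K178R 3 rose and 5 fell, and in K178R against wild type 10 were higher and 10 lower. These counts became 7 and 19, 2 and 5, and 16 and 5 with median-of-ratios scaling. As deposited, the K178R counts against control lie near the shares of all genes (11.7% higher and 11.1% lower). So do the 10 lower in K178R against wild type (34.5%). CDKN1A, which encodes the inhibitor p21, had 51.0 and 50.8 FPKM in control, 149 and 152 with wild type TEAD4 and 30.8 and 30.6 with K178R. It thus rose in the wild type line (log2 change 1.55) and fell in the K178R line (-0.71), with no overlap between any 2 lines. CDKN1B, encoding p27, stood at 16.8 and 16.6, 15.1 and 14.8, and 16.2 and 17.3 FPKM (log2 change -0.15 with wild type TEAD4). CDKN1C, encoding p57, was at 0.956 and 0.874 FPKM in control and rose to 1.94 and 2.23 with wild type TEAD4 (0.69). RBL2, encoding the retinoblastoma relative p130, was lower in the mutant line than in the wild type line (-0.70), and CDK6 rose (0.31) and CCND1 fell (-0.24) with K178R against control.

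Among the E2F genes, the activators E2F1 and E2F2 and the repressor E2F8 were lower with wild type TEAD4. E2F1 had 15.7 and 17.8 FPKM in control, 14.5 and 13.8 with wild type TEAD4 and 16.4 and 17.2 with K178R (log2 change -0.23 for wild type against control). E2F2 had 7.56 and 8.46, 6.42 and 5.87, and 7.55 and 7.71 FPKM (-0.33). E2F8 had 11.7 and 11.2, 6.95 and 6.56, and 10.6 and 10.04 FPKM (-0.69), and was higher in K178R than in wild type (0.55). E2F4 was lower with wild type TEAD4 (61.0 and 58.3 against 51.9 and 54.7 FPKM), and E2F5 was higher (3.99 and 2.94 against 6.64 and 5.04). E2F7 had 8.10 and 7.98 FPKM in control, 7.64 and 7.76 with wild type TEAD4 and 9.08 and 9.34 with K178R, the only E2F gene called in K178R against control (0.18). E2F3 (9.09 to 11.3 FPKM) and E2F6 (4.37 to 5.25 FPKM) were not called in any comparison with the values as deposited; after median-of-ratios scaling E2F3 was called higher in K178R than in wild type and E2F7 lower with wild type TEAD4 than in control.

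Some values carry a further limit from related sequence. GENCODE release 29 names 8 pseudogenes of DUT, 3 each of PCNA, RPA2 and RRM2, 2 of TYMS, and 1 each of FEN1, POLD2, RFC3 and RFC5. How the deposited values treated reads that match several places is not given in the sources used here, so the levels of these genes are uncertain to that extent.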

How the data were processed

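RNA of 6 HCT116 libraries, 2 for each of 3 lines, was sequenced by the authors, who deposited 1 table of FPKM per library. Per the submitters' processing notes, Bowtie 0.12.2 and the hg18 build were used; not given in the sources used here are the program behind the FPKM, its gene annotation and how strand and reads with several matches were treated. The 4 rows with a repeated identifier were left out. From the deposited FPKM, log2(FPKM + 1) was computed for the 11445 genes that reached 0.5 FPKM in 2 or more libraries. limma 3.58.1 with trend (R 4.3.3) was fitted to all 6 libraries as 3 groups, with 2 libraries each and 3 residual degrees of freedom, and p-values were adjusted over all genes tested (Benjamini-Hochberg, two-sided, threshold 0.05). FPKM keep no absolute read counts, so no count model was fitted. The fit was also run on simulated data with normal noise and changes in a small share of genes, in both directions. Those data lack the broad changes seen here, so that run does not show how reliable the present calls are.

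The 49 members and all gene lists were chosen with earlier results of these data known. Full statistics are given for at most the 10 called members with the largest change in each comparison and for each called member that moved against most of the others. The other lists are given by counts and by their 3 called genes with the largest change, and CDKN1A, CDKN1B and E2F1 to E2F8 always by value. Alternatives were the pseudocount, the filter, 2 scalings, the fit without trend, a robust fit, a fit to the 2 groups compared, the replicate block, averaged control libraries, stricter thresholds and leaving out each library. Positions come from GENCODE release 29 (GRCh38) and promoters from RefSeq (GRCh38.p14), by gene symbol, and no coordinate was converted from hg18. Ranges of ± are SD.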

Additional observations from a re-analysis of the deposited data

How the results depend on the processing

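Under 18 alternative settings, including an adjusted p of at most 0.01 but not the minimum log2 change of 0.3, 23 of 33 called members in wild type TEAD4 against control, 3 of 10 in K178R against control and 23 of 33 in K178R against wild type TEAD4 were called each time, and POLD2 in the last comparison was the only called member whose sign turned (0.022 with median-of-ratios scaling). For members higher with wild type TEAD4, 3 as reported, the count was 1 with median-of-ratios scaling, 1 with upper-quartile scaling, 1 with the control libraries averaged, 1 at an adjusted p of at most 0.01, 0 with a log2 change of at least 0.3, and 1 to 3 when a library was left out. Counts here can include genes not called in the report. The count of lower members, 30 as reported, was 14 with a log2 change of at least 0.3 and 24 to 28 when a library was left out. In K178R against control, the count of higher members, 0 as reported, was 1 with upper-quartile scaling, 1 with a filter of 1 FPKM in all libraries and 1 with the replicate block, and 0 to 1 when a library was left out. The count of lower members, 10 as reported, was 6 without the trend, 4 with the control libraries averaged, 5 at an adjusted p of at most 0.01, 0 with a log2 change of at least 0.3, and 3 to 10 when a library was left out. In K178R against wild type TEAD4, the count of higher members, 26 as reported, was 12 with a log2 change of at least 0.3 and 23 to 27 when a library was left out. The count of lower members, 7 as reported, was 0 with median-of-ratios scaling, 2 with upper-quartile scaling, 1 at an adjusted p of at most 0.01, 0 with a log2 change of at least 0.3, and 3 to 7 when a library was left out. Over all genes, K178R against control gave 1342 higher and 1268 lower as reported, 658 and 577 with the control libraries averaged, and 732 to 1266 and 635 to 1229 when a library was left out. Over all genes, K178R against wild type TEAD4 gave 1187 higher and 3952 lower as reported, and 2600 and 2270 with median-of-ratios scaling. Where a fit left 1 library in a group, that library was taken to vary like the other groups. The cause of these shifts was not tested.

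The replicate numbers are shared between lines, but same-numbered libraries did not deviate together (correlations over 11445 genes of 0.02, -0.03 and 0.03), so the numbers are not shown to pair the libraries. With the replicate block, 3 members were higher and 30 lower with wild type TEAD4, 1 higher and 7 lower with K178R, and 27 higher and 7 lower in K178R against wild type TEAD4. Depth in reads is unknown, so the precision of low genes such as ORC4 and PRIM2 could not be taken from read counts. It rests on the spread between the 2 libraries of each line, pooled over the 3 lines and moderated across all tested genes.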
